A study of Mus musculus with 6 samples.

Results

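The 10 genes described here handle vitamin A in the intestinal epithelium. They are Rbp2, Lrat, Bco1, Isx, Adh1, Rdh7, Dhrs3, Aldh1a1, Cyp26b1 and Rarb. They were taken by symbol from a table of read counts for 54446 genes, and all 10 symbols were found, each on 1 row. The choice rests on their known roles, and it was made with earlier results of these data known.

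The counts come from RNA sequencing of small-intestinal epithelial cells from 6 mice, 3 control and 3 knockout. Control mice were Prkci flox/flox, that is, both copies of Prkci, which encodes the polarity kinase atypical protein kinase C iota, carried loxP sites. Knockout mice were Prkci flox/flox with Villin-CRE, a recombinase driven by the villin promoter, which is active in epithelial cells of the intestine. No group carried the recombinase without the floxed gene, so an effect of the recombinase and an effect of the deletion cannot be told apart. All 6 mice were 3 to 4 months old and shared housing, and all carried the floxed alleles. The sample titles name jejunum, the series text a segment running from jejunum to ileum, and the cells are labelled as enterocytes.

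Dietary vitamin A reaches enterocytes as retinol or as carotenoids such as beta-carotene, which are cleaved to retinal. Retinal and retinol are interconverted by reductases and dehydrogenases, retinol is esterified for export in chylomicrons, and a part of the retinal is oxidised to retinoic acid. Retinoic acid is the ligand of the nuclear receptors RAR, which pair with RXR on DNA, and it induces enzymes that lower its own level. In the small intestine it is also known to induce Isx, a homeobox repressor of carotenoid uptake and cleavage genes.

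Promoter sequence of 6 of the genes is shown because the nuclear receptors that read retinoids recognise short repeated hexamers in DNA. Rbp2, Bco1, Rdh7 and Rarb held a match, and Dhrs3 and Aldh1a1 held none. A link between these matches and the levels below was not tested. The sequences are from RefSeq on build GRCm38.p6, the same genome as mm10, and run 5′ to 3′ on the gene's strand from upstream towards the start of transcription. Capitals mark AGGTCA on either strand, which reads TGACCT on the other strand, and, for Rarb, a direct repeat of GTTCAC. The promoter table held all 10 genes, with 14 windows in all, each of 300 bases.
Rbp2, chr9:98490417-98490536, plus strand: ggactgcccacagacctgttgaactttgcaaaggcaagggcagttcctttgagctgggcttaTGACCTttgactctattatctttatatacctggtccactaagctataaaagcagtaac
Bco1, chr8:117095745-117095853, plus strand: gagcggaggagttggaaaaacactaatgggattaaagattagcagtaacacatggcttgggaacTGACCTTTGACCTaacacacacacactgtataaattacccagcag
Rdh7, chr10:127889248-127889367, minus strand: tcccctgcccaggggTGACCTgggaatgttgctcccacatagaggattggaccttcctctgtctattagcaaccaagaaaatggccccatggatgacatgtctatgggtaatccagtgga
Dhrs3, chr4:144892707-144892826, plus strand: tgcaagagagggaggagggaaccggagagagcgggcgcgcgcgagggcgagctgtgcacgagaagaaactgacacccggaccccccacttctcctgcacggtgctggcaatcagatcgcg
Aldh1a1, chr19:20601848-20601960, plus strand: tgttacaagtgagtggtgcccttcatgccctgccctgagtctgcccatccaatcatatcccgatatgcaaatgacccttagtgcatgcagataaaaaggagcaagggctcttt
Rarb, chr14:16575512-16575528, minus strand: GTTCACCGAAAGTTCAC

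The Bco1 window held 2 copies of AGGTCA in direct repeat with 1 base of any kind between them, on the minus strand, a spacing known for binding by HNF4 and by RXR with PPAR. That repeat was found in 0.0396% of the 32851 RefSeq promoter windows of the same length, searched on both strands, and the hexamer AGGTCA alone in 16.3% of them. Each full match to the repeat also counts as a match to the hexamer. Rbp2 and Rdh7 each held the single hexamer, at 58 and 105 bases before the start. For Rdh7 this was in 1 of its 2 windows. The other, whose upstream part is chr10:127888734-127888983, held none of the motifs searched. The Rarb repeat, 2 copies of GTTCAC with any 5 bases between them, was found in 0.00609% of windows (2 promoters). It is the textbook retinoic acid response element of this gene, and it was added to the search after the promoters had been read. Direct repeats of AGGTCA with spacers of 2 bases and of 5 bases were each found in 0.00913% of windows and in none of the 14. TTTATG, a core motif of the Cdx homeobox factors, was in 11.9% of windows. Among the 10 genes it was in the Bco1 window and in the same Rdh7 window as AGGTCA. None of the motifs searched was in the windows of Dhrs3, Aldh1a1, Adh1, Lrat, Isx or Cyp26b1. These are matches of letters and no measure of binding.

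Each library held 18972906 to 26687856 counts. Prkci, the targeted gene, had 44.6, 46.9 and 44.0 CPM (counts per 1e6 counts of the scaled library total) in controls 1 to 3 and 21.5, 14.6 and 21.4 CPM in knockouts 1 to 3. Its log2 fold change was −1.24 (SE 0.17), with an adjusted p of 0.0719 by edgeR's quasi-likelihood test and 9.92e-08 by DESeq2, and the groups did not overlap. Knockout 1 stood apart from knockouts 2 and 3. On the first principal component of log2 CPM, which held 54.7% of the variance, it lay at −21.9, near the controls (−33.3 to −30.4), while the others lay at 68.0 and 50.9. On the second, with 20.2%, it lay at −52.6, away from the controls (5.48 to 29.45) and from knockouts 2 and 3 (11.2 and −6.77). Without it, edgeR called 17.5% of the genes tested, against 0.0597% with all 6 libraries, so values without it are given beside the results whose call or size they change. By Xist and Ddx3y, 3 libraries had the other sex than the series text states, namely control 2, control 3 and knockout 3. By these RNAs controls 1 and 2 and knockout 1 were male, and control 3 and knockouts 2 and 3 were female. Sex by RNA and genotype are thus partly confounded with all 6 libraries. They are more so without knockout 1, where all knockouts were female by RNA and the controls of both sexes. Enterocyte markers, 13 genes, were present in every library and summed to 46160 to 54130 CPM in controls and 47630 to 66800 CPM in knockouts, with the villin gene Vil1 at 3122 to 3422 CPM.

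RNA of other cells also differed between the libraries. Summed over 8 secreted enzymes of pancreatic acinar cells, a list added after the values were seen, counts were 0 in all controls and in knockout 1, 403 in knockout 2 and 5693 in knockout 3. Immune markers were higher in every knockout than in any control. The 8 T cell markers summed to 174 to 295 CPM in controls and 350 to 771 CPM in knockouts, the 8 macrophage and dendritic cell markers to 12.2 to 13.6 against 23.4 to 37.4 CPM, and the 6 B and plasma cell markers to 27.5 to 128 against 145 to 322 CPM. Secretory epithelial markers were lower in every knockout for goblet cells (5 genes, 8989 to 10910 CPM in controls and 7310 to 7716 CPM in knockouts, 3 of the 5 with a log2 fold change below 0) and Paneth cells (5 genes, 1467 to 5309 against 682 to 1224 CPM, all 5 below 0). The 5 tuft cell markers summed to 156 to 200 CPM in controls and to 158, 19.4 and 25.1 CPM in knockouts 1 to 3, and the 5 enteroendocrine markers to 156 to 184 against 208 to 304 CPM. Of the stromal lists, the 9 fibroblast markers summed to 5.72 to 20.7 CPM in controls and 13.1 to 65.3 CPM in knockouts, with Lum at 0 counts in every control. The 6 smooth muscle markers summed to 1.28 to 3.39 CPM in controls and to 29.5, 1.13 and 62.3 CPM in knockouts 1 to 3. Both stromal lists overlapped between the genotypes.

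With all 6 libraries edgeR called none of these markers over all genes. Those of pancreas, with counts only in knockouts 2 and 3, were left out by the filter on counts. DESeq2 called 4 of 8 T cell markers, 3 of 4 tested smooth muscle markers and 1 each of the fibroblast, macrophage, B cell and enteroendocrine markers higher. It called 1 goblet and 1 Paneth cell marker lower. Over all genes tested DESeq2 called 3.60% higher and 1.95% lower. Without knockout 1, edgeR called 5 T cell markers and 3 enteroendocrine markers higher (10.0% of all genes were). Higher too were 1 each of the goblet, macrophage, fibroblast, endothelial and crypt markers. In that fit it called 4 tuft, 2 Paneth, 1 goblet and 1 endothelial cell marker lower (7.44% of all genes were). It also called all 8 pancreatic markers higher. That list was added after its counts in knockouts 2 and 3 were seen, so these calls are no test of it. Markers of intestinal segment were mixed. The 8 proximal markers summed to 10140 to 14720 CPM in controls and to 15650, 10470 and 13450 CPM in knockouts 1 to 3, with 5 above 0 and 3 below on the log2 scale. The 7 distal markers summed to 483 to 734 CPM in controls and to 410, 1058 and 1704 CPM in knockouts 1 to 3. Of the 13 enterocyte markers, 10 had a log2 fold change above 0 and 3 below. DESeq2 called 2 proximal markers and 1 enterocyte marker higher, and 1 distal marker lower. Without knockout 1, edgeR called 3 enterocyte, 3 proximal and 2 distal markers higher, and 1 of each list lower. The enterocyte and proximal lists share genes, such as Lct and Fabp1. The part of all these differences in the retinoid results was not tested. In bulk RNA such as this, fewer cells of a type and less RNA per cell cannot be told apart.

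Of the 10 genes, 9 had enough counts to be tested. Rdh7, Aldh1a1, Adh1 and Dhrs3, 4 enzymes that interconvert or oxidise retinol and retinal, were lower in every knockout than in any control, with knockout means at 0.466 to 0.64 of the control means. For comparison, 11.7% of the 15068 genes tested were lower without overlap. None of the 9 was called by edgeR over all genes at an adjusted p of 0.05 (0.0597% of genes were), and none by limma-voom. At an unadjusted edgeR p under 0.05 the same 4 were lower, against 7.09% of all genes. DESeq2 called these 4 lower, against 1.95% of all genes. Without knockout 1, edgeR called 5 lower (7.44% of genes were), namely Adh1, Dhrs3, Aldh1a1, Rbp2 and Lrat. The median log2 fold change of the 9 was −0.64, beside 0.0061 for all genes tested, with 8 of 9 below 0.

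**Figure D1:**
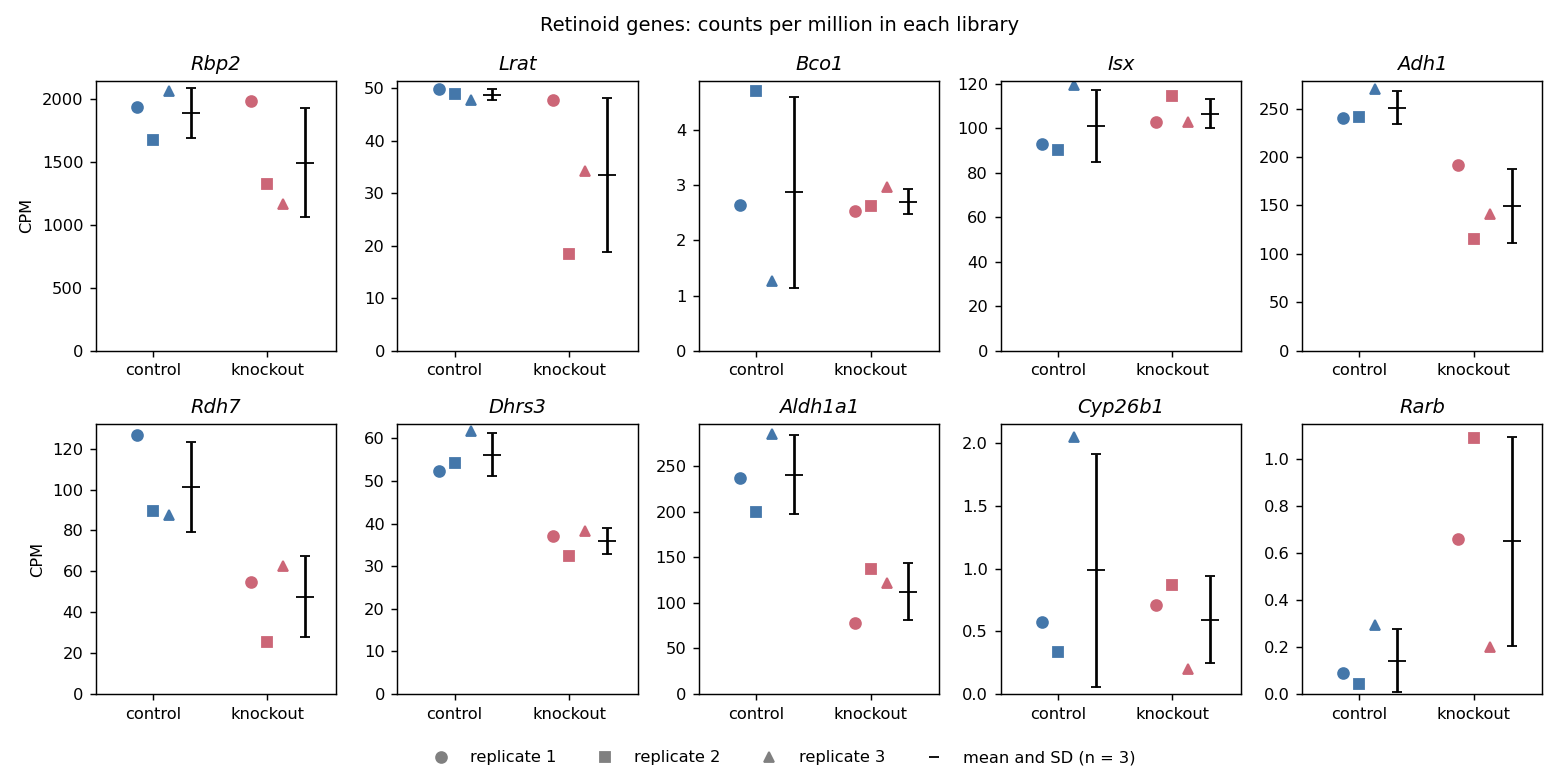
CPM of each of the 10 genes in each library (points, marked by replicate), with the mean and SD of each genotype (bars, n = 3). Adh1, Rdh7, Dhrs3 and Aldh1a1 have every knockout below every control, while in Rbp2 and Lrat knockout 1 sits with the controls.

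Levels of different genes were compared per kilobase of exon, since a longer transcript collects more reads. Rbp2 was by far the most abundant of the 10, at 1963 ± 207 CPM per kb (SD, n = 3) in controls, and ranked 17 of the 54409 genes with an exon length. Adh1 came next at 112 ± 7.64 CPM per kb. Rdh7 (60.4 ± 13.2), Isx (56.2 ± 9.01) and Aldh1a1 (48.8 ± 8.76 CPM per kb) followed and could not be ordered, because their control libraries overlapped. Dhrs3 stood at 19.2 ± 1.71 and Lrat at 9.11 ± 0.195 CPM per kb, each clear of its neighbours. Bco1 (1.13 ± 0.683), Cyp26b1 (0.184 ± 0.174) and Rarb (0.0268 ± 0.0254 CPM per kb) closed the order without overlap. In knockouts Rbp2 remained first, at 1549 ± 450 CPM per kb. Isx (59.4) and Adh1 (66.9 CPM per kb), which did not overlap in controls, overlapped in knockouts.

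**Figure D2:**
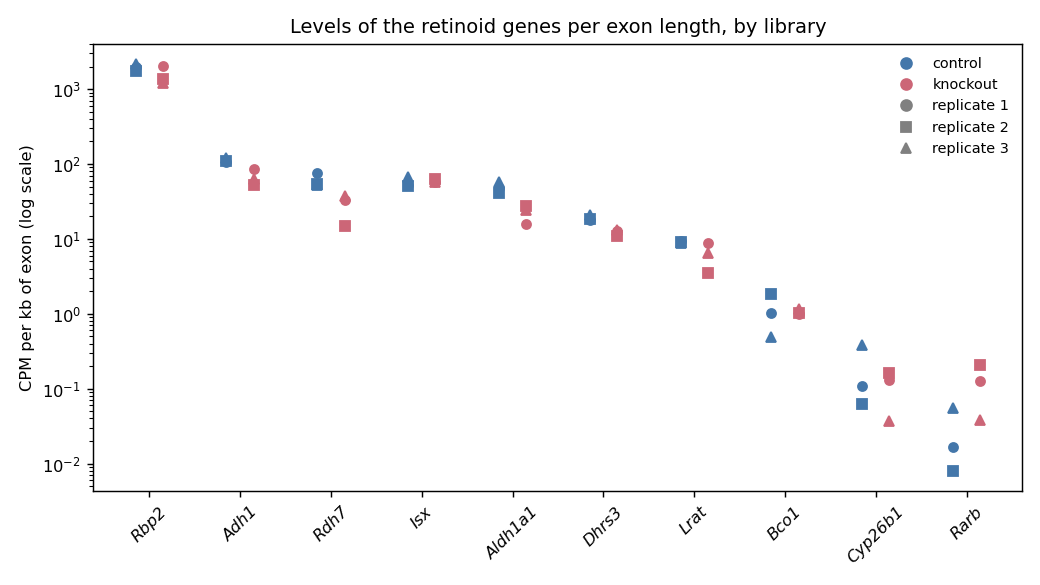
Level of each gene per kilobase of exon, in CPM per kb on a log axis, for each control and knockout library. The 10 genes span from 1963 CPM per kb for Rbp2 to 0.0268 CPM per kb for Rarb in control means.

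Rbp2 (ENSMUSG00000032454.9, chr9:98486115-98509781) encodes the cellular retinol-binding protein of enterocytes, which carries newly absorbed retinol and retinal to the enzymes that reduce and esterify them. It had 1930, 1671 and 2063 CPM in controls 1 to 3 and 1981, 1324 and 1164 CPM in knockouts 1 to 3. Knockout 1 lay within the control range and knockouts 2 and 3 lay below it, so the groups overlapped. For all 6 libraries edgeR gave a log2 fold change of −0.34 (SE 0.23) and an adjusted p of 0.475. Without knockout 1 it was −0.60, with an adjusted p of 0.0325 by edgeR, and without knockout 3 it was −0.18, with an adjusted p of 0.808 by edgeR.

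Lrat (ENSMUSG00000028003.6, chr3:82892579-82903973) encodes lecithin retinol acyltransferase, which makes retinyl esters from retinol bound to RBP2. Its controls were tight, at 49.8, 48.8 and 47.7 CPM, and the knockouts spread over 47.7, 18.5 and 34.3 CPM. Knockout 1 was at 97.8% of the control mean, while knockouts 2 and 3 were at 37.9% and 70.4%. Its log2 fold change of −0.54 (SE 0.30) had an adjusted edgeR p of 0.410 for all 6 libraries, and 0.0420 without knockout 1 (−0.88). Without knockout 2 it was −0.24, with an adjusted edgeR p of 0.627. Lrat and Rbp2 thus shared the position of knockout 1 with the controls.

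Bco1 (ENSMUSG00000031845.15, chr8:117095854-117133720), the enzyme that cleaves beta-carotene into retinal, was low in all libraries. It had 2.64, 4.71 and 1.26 CPM in controls and 2.53, 2.61 and 2.96 CPM in knockouts. The controls enclosed all 3 knockouts, and the log2 fold change of −0.08 (SE 0.44, adjusted edgeR p 0.938) changed sign when control 2 was left out (0.47). At this spread no difference was detectable.

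Isx (ENSMUSG00000031621.9, chr8:74873173-74893506), the retinoic-acid-induced repressor of Bco1 and of the carotenoid receptor gene Scarb1, had 92.9, 90.2 and 119 CPM in controls and 103, 114 and 103 CPM in knockouts. All knockouts lay inside the control range. On the log2 scale the difference was 0.08 (SE 0.13, adjusted edgeR p 0.789), and it was −0.03 when libraries were scaled by their totals.

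Adh1 (ENSMUSG00000074207.10, chr3:138260991-138290698) encodes an alcohol dehydrogenase that oxidises retinol to retinal and also clears excess retinol and ethanol. It had 241, 241 and 271 CPM in controls and 191, 116 and 142 CPM in knockouts. Every knockout was below every control, and knockout 1 was the nearest to them, at 76.3% of their mean. A log2 fold change of −0.75 (SE 0.19) was estimated, and its adjusted p was 0.153 by edgeR and 0.0149 by DESeq2. Without knockout 1 it was −0.97, with an adjusted edgeR p of 0.00352. The antisense gene Gm16559 overlaps Adh1, and since the counter's strand setting is not given in the sources used here, their reads may not be separated.

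Rdh7 (ENSMUSG00000040134.8, chr10:127884028-127888817) encodes a short-chain dehydrogenase that oxidises retinol and steroid substrates. Controls had 127, 89.6 and 87.4 CPM and knockouts 54.7, 25.3 and 62.8 CPM. Knockouts stood at 54.0%, 25.0% and 62.0% of the control mean, with no overlap. This was a log2 fold change of −1.09 (SE 0.33), and its adjusted p was 0.198 by edgeR and 0.0321 by DESeq2. Without knockout 1 it was −1.20, with an adjusted edgeR p of 0.0630. Rdh7 has near-identical neighbours in a gene cluster, and 12.9% of its exon windows of 50 bases also occur in Hsd17b6, Rdh1, Rdh16f1 or Rdh18-ps, so a part of its counts is uncertain.

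Dhrs3 (ENSMUSG00000066026.14, chr4:144892827-144928209) encodes a retinal reductase that works in the opposite direction, returning retinal to retinol, and is itself a known retinoic acid target. Its controls had 52.4, 54.2 and 61.9 CPM and its knockouts 37.1, 32.4 and 38.2 CPM. Here the 3 knockouts lay close together, at 66.1%, 57.7% and 68.0% of the control mean, knockout 1 included. Dhrs3 had the smallest standard error of the 9 genes (log2 fold change −0.64, SE 0.12), and its adjusted p was 0.104 by edgeR and 0.000722 by DESeq2. Without knockout 1 edgeR gave an adjusted p of 0.0114.

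Aldh1a1 (ENSMUSG00000053279.7, chr19:20492715-20643462) encodes a retinal dehydrogenase, which makes retinoic acid. It had 238, 200 and 286 CPM in controls and 77.6, 138 and 122 CPM in knockouts. The genotypes did not overlap, and here knockout 1 was the lowest library, at 32.2% of the control mean, against 57.1% and 50.5% for knockouts 2 and 3. Its adjusted p was 0.120 by edgeR and 0.00136 by DESeq2, for a log2 fold change of −1.10 (SE 0.23). Without knockout 1 it was −0.89, with an adjusted edgeR p of 0.0117. With no filter on low counts Aldh1a1 was the 1 gene of the 10 called by edgeR, with an adjusted p of 0.0418 (0.312% of the genes tested that way were called lower). Of its exon windows, 3.06% are shared with Aldh1a7. That paralog, an aldehyde dehydrogenase next to it on the chromosome, had 29.9, 25.7 and 33.8 CPM in controls and 11.0, 24.4 and 21.7 CPM in knockouts, again with knockout 1 lowest. Aldh1a7 differed by −0.64 on the log2 scale, with an adjusted edgeR p of 0.321, and by −0.37 without knockout 1, with an adjusted edgeR p of 0.123.

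**Figure D3:**
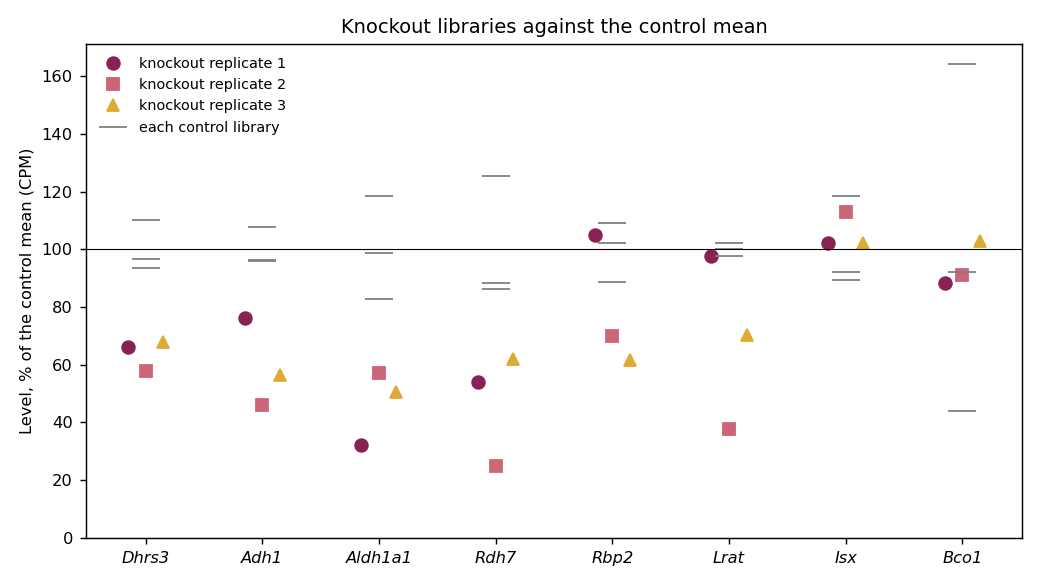
Level of each knockout library as a percentage of the control mean, for 8 of the retinoid genes, leaving out Cyp26b1 and Rarb for their low counts (x axis, genes; y axis, percent; points marked by replicate; grey dashes, each control library). Knockout 1 is close to 100 for Rbp2 and Lrat, below the other knockouts for Aldh1a1, and level with them for Dhrs3.

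Cyp26b1 (ENSMUSG00000063415.12, chr6:84571414-84593908) encodes a cytochrome P450 that hydroxylates retinoic acid and so inactivates it. It was near the detection limit, with 13, 8 and 49 counts in controls and 14, 20 and 5 in knockouts. The highest and the lowest library therefore came from opposite genotypes, but control 3 alone set the control mean, and leaving it out turned the log2 fold change from −0.74 (SE 0.77, adjusted edgeR p 0.652) to 0.37. In control 3 the fibroblast markers were also the highest of the controls, at 20.7 CPM summed, and their part in the Cyp26b1 counts was not tested. Of the related enzymes, Cyp26a1 had at most 0.0506 CPM and Cyp26c1 at most 0.44 CPM in any library.

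Rarb (ENSMUSG00000017491.9, chr14:16430839-16819156) encodes retinoic acid receptor beta, whose own promoter carries the repeat printed above. It had 2, 1 and 7 counts in controls and 13, 25 and 5 in knockouts, under the level needed for the main test. Knockouts 1 and 2 were above all controls and knockout 3 was within them. The pooled knockout level was 4.49 times the control level, with a counting interval of 2.22 to 10.0 that leaves out the spread between mice. Fitted with no filter on low counts, Rarb had a log2 fold change of 2.17 (SE 0.76, adjusted edgeR p 0.240). Rarb overlaps Top2b, an abundant gene on the opposite strand. Fibroblast markers, whose cells also express Rarb, were highest in knockout 1 (65.3 CPM summed) and at 13.1 CPM in knockout 2, where Rarb was highest, and their part in the Rarb counts was not tested.

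The choice of scale was checked on the gene set against Vil1, which has a similar level in all libraries. Per 1000 Vil1 counts, Dhrs3 had 16.5, 17.3 and 19.8 counts in controls and 11.9, 9.47 and 11.8 in knockouts. Adh1, Rdh7 and Aldh1a1 likewise kept every knockout below every control. Lrat joined them on this scale by a small margin, with 15.2 in knockout 1 against 15.3 in the lowest control. The exact two-sided permutation p was 0.1 for each of these 5, the smallest that 3 against 3 libraries can give, and 0.3 for Rbp2. Scaling by library totals moved the median log2 fold change of all genes by −0.11 and turned 1068 lower and 1405 higher genes at an unadjusted edgeR p under 0.05 into 1512 lower and 996 higher. The 4 oxidoreductases were lower under every scaling tried. With sex by Xist and Ddx3y as a term their log2 fold changes were −0.70 (Adh1), −0.99 (Rdh7), −0.67 (Dhrs3) and −1.32 (Aldh1a1). Their adjusted edgeR p in that fit ranged from 0.080 for Aldh1a1 to 0.31 for Rdh7.

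**Figure D4:**
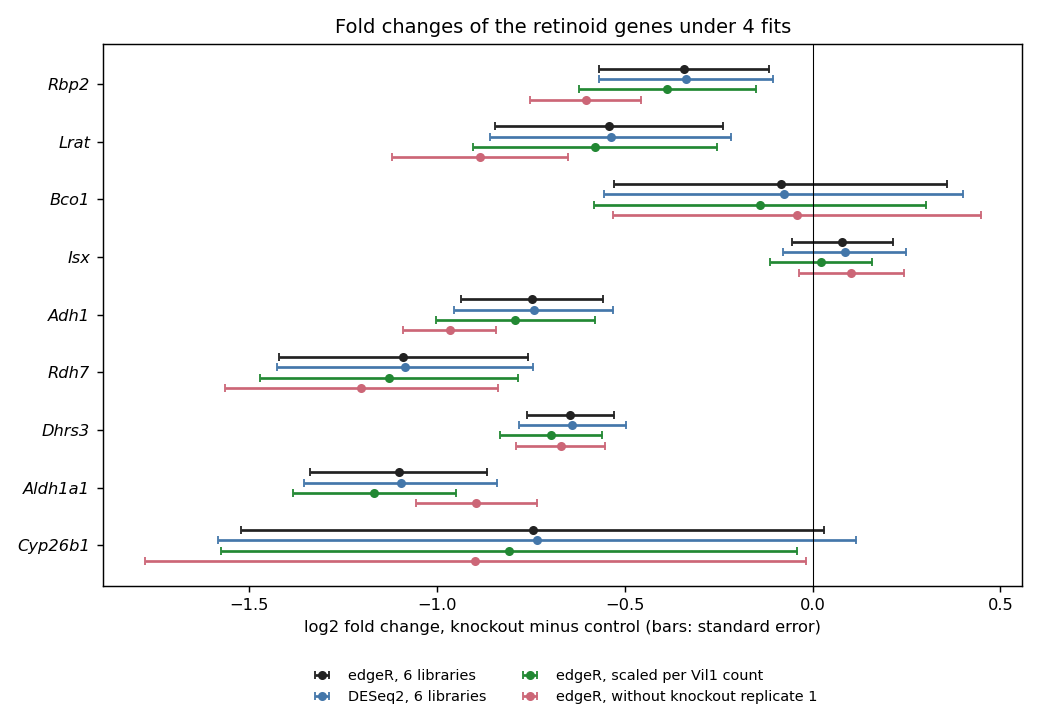
Log2 fold change (knockout minus control, x axis) with its standard error (bars) for the 9 tested genes under edgeR with 6 libraries, DESeq2, edgeR scaled per Vil1 count, and edgeR without knockout 1. Leaving out knockout 1 moves Rbp2 from −0.34 to −0.60 and Lrat from −0.54 to −0.88, and leaves Isx and Bco1 near 0.

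The other genes of the pathway gave the setting. In all, 72 further genes were listed by role, and 47 of them had enough counts. EdgeR called none, 3 were higher and 6 lower at an unadjusted p under 0.05 (9.32% of all genes tested were higher and 7.09% lower), and the median log2 fold change was −0.17. DESeq2 called 1 higher (3.60% of all genes) and 2 lower (1.95% of all genes). Without knockout 1 edgeR called 5 higher (10.0% of all genes) and 7 lower (7.44% of all genes). The 5 include Cel, which was named after its values were seen.

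Among the 13 genes of uptake and binding, 9 were tested, with a median log2 fold change of 0.14. Scarb1, the receptor that takes up carotenoids and is repressed by ISX, had 5.54, 1.38 and 3.93 CPM in controls and 5.36, 38.1 and 29.6 CPM in knockouts. Knockout 1 lay among the controls and the others far above them. Over all 6 libraries the log2 fold change was 2.75 (SE 0.76), and the adjusted p was 0.174 by edgeR, 0.0435 by DESeq2 and 0.00444 by edgeR without knockout 1. With sex by Xist and Ddx3y as a term the log2 fold change was 1.90 (adjusted edgeR p 0.368). Knockouts 2 and 3 are also the libraries with pancreatic enzyme counts and with the highest distal marker sums. Cd36, a fatty acid and carotenoid transporter, had 114, 117 and 101 CPM in controls and 99.96, 50.2 and 72.9 CPM in knockouts (log2 fold change −0.57, adjusted edgeR p 0.288). This was −0.84 without knockout 1 (adjusted edgeR p 0.0154) and −0.34 without knockout 2 (adjusted edgeR p 0.487). Stra6l, a retinol-binding protein receptor, had 9.72, 11.4 and 11.3 CPM in controls and 8.45, 6.45 and 6.53 CPM in knockouts, without overlap (adjusted edgeR p 0.181, and 0.0199 without knockout 1). Bco2, the carotenoid cleavage enzyme of mitochondria, differed by −0.24 on the log2 scale with overlapping groups.

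The ester list, of enzymes that make or split retinyl esters, had 10 genes, of which 6 were tested (median log2 fold change −0.16). Dgat1, which can also esterify retinol, had 656 ± 65.5 CPM in controls and 694 ± 43.8 CPM in knockouts (SD, n = 3). Pnliprp2, a lipase, had 135, 397 and 271 CPM in controls and 175, 17.8 and 17.3 CPM in knockouts. Its log2 fold change was −1.94 (adjusted edgeR p 0.355), −3.93 without knockout 1 (adjusted edgeR p 0.0026), and −2.93 with the replicate block (adjusted edgeR p 0.318). Ces1f, a carboxylesterase (0.69), and Lipe, hormone-sensitive lipase (−0.12 on the log2 scale), overlapped between genotypes. Ces1f ranged from 0.24 without knockout 3 to 1.09 without knockout 1, and was 0.081 with sex by Xist and Ddx3y as a term. Cel, a pancreatic carboxyl ester lipase that was looked at after the pancreatic counts were seen, had at most 1 count in each control and in knockout 1, and 76 and 942 counts in knockouts 2 and 3.

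Of 20 further alcohol and short-chain dehydrogenases, 14 were tested, with a median log2 fold change of −0.18. At an unadjusted edgeR p under 0.05, 2 were higher (9.32% of all genes) and 2 lower (7.09% of all genes). Dhrs4, which reduces retinal, had 47.8, 55.3 and 57.5 CPM in controls and 38.8, 36.3 and 39.8 CPM in knockouts. As in Dhrs3, the 3 knockouts lay together below all controls (log2 fold change −0.48, SE 0.11, adjusted p 0.127 by edgeR, 0.0125 by DESeq2 and 0.0252 by edgeR without knockout 1). Rdh10, the main retinol dehydrogenase of the embryo, lay the other way, with 23.3, 19.8 and 21.9 CPM in controls and 24.0, 29.6 and 35.9 CPM in knockouts. The groups did not overlap, and the log2 fold change of 0.46 (SE 0.17) had an adjusted edgeR p of 0.247, and 0.0245 without knockout 1. Rdh11 (0.03) and Adh5 (−0.32 on the log2 scale) overlapped between genotypes. The list was thus mixed in direction.

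Few genes downstream could be read. Of 5 further enzymes of retinal oxidation, 2 were tested, Aldh1a7 and Aldh1a3, the latter under 2 CPM in all libraries (0.83 on the log2 scale, SE 0.84). Aldh1a2, which makes retinoic acid in stromal and immune cells, had at most 0.36 CPM in any library. The 7 receptors and cofactors tested of 8 had no member at an unadjusted edgeR p under 0.05. Rxra, the RAR partner, had 144, 168 and 160 CPM in controls and 143, 125 and 141 CPM in knockouts (log2 fold change −0.21, adjusted edgeR p 0.393). The corepressor gene Ncor1 and the receptor gene Ppard differed by −0.22 and −0.08 on the log2 scale. Of 12 retinoic acid target genes, 4 were tested, with a median log2 fold change of 0.47. Tgm2, a transglutaminase induced by retinoic acid in many cells, had 58.2, 68.9 and 56.6 CPM in controls and 48.6, 163 and 96.2 CPM in knockouts. Its log2 fold change was 0.74 with overlapping groups, and the adjusted edgeR p was 0.380, or 0.0148 without knockout 1 (1.08). Without knockout 2 the value was 0.26 (adjusted edgeR p 0.791), and with sex by Xist and Ddx3y as a term it was 0.41. The cofactor gene Nrip1 differed by −0.06 and Hoxa4 by 0.73 (SE 0.43, and 0.39 without control 2) on the log2 scale.

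At an unadjusted edgeR p under 0.05, 7.09% of all genes tested were lower and 9.32% higher. Among 6 transcription factors of the intestinal epithelium, 1 was lower at that p and none higher. That gene, the nuclear receptor Hnf4g, had 443, 552 and 530 CPM in controls and 372, 312 and 278 CPM in knockouts, without overlap. Its log2 fold change was −0.66 (SE 0.16), with an adjusted p of 0.136 by edgeR, 0.00449 by DESeq2 and 0.0100 by edgeR without knockout 1. Hnf4a (0.09), Gata4 (−0.06) and Cdx2 (−0.22 on the log2 scale) had overlapping groups.

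**Figure D5:**
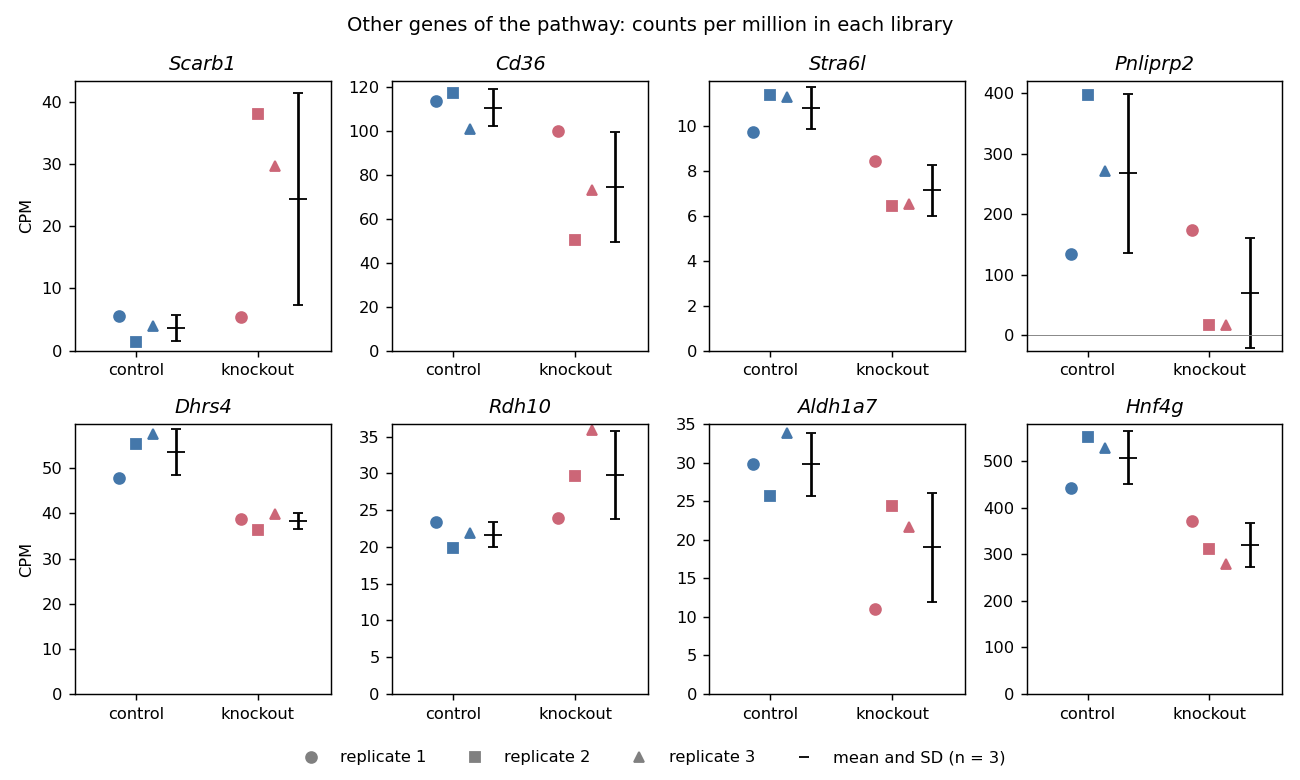
CPM in each library for 8 genes of the wider pathway, with the mean and SD of each genotype (n = 3). Scarb1 is high and Pnliprp2 low in knockouts 2 and 3 and not in knockout 1, whereas Dhrs4 and Hnf4g have all 3 knockouts below all controls; the SD bar of Pnliprp2 in knockouts extends below 0.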

How the data were processed

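RNA from intestinal epithelial cells of 6 mice was sequenced. Both a poly-A selection and a ribosomal RNA depletion kit are named in the labels. The submitters' processing notes list STAR 2.5.0a and the build mm10, with Trim Galore, FastQC and bcl2fastq 2.17. Which counter, strand setting and annotation were used is not given in the sources used here. The authors deposited whole-number counts per gene and library, not normalized, with gene coordinates. Of the identifiers, 53229 (97.8%) matched GENCODE mouse release M21 with their version. Exon lengths were taken from M21 by identifier without version. Aldh1a1 has a later version there (ENSMUSG00000053279.8) with other coordinates. Its exon length and shared windows are thus those of the M21 gene model.

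Sample titles gave the genotype and replicate number, and each library is a different mouse. The main test was edgeR 4.0.16 (R 4.3.3), a two-sided quasi-likelihood F test with trimmed-mean scaling and the tool's filter by group (minimum count 10), adjusted by Benjamini-Hochberg over 15068 genes at 0.05. CPM is the count over the scaled library total, times 1e6. Standard errors were derived from the log2 fold change and F. Alternatives were DESeq2 1.42.0, limma-voom 3.58.1, other scalings and filters, sex terms, a replicate block and leaving out each library. Counting intervals are exact and cover counting error only.

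The members and lists were chosen with earlier results of these data known. Genes named were all members, Prkci, Vil1, and up to 4 of each pathway list with the highest mean CPM, of which 2 are not reported here. The pancreatic list, Cel, Cyp26a1, Cyp26c1 and Aldh1a2 were named after their values were seen. Deviations of same-numbered libraries from their group means correlated at 0.117, 0.119 and 0.149, against −0.143 to 0.00929 for other pairs, so the block was fitted, although no label says what the number marks. The scripts were tested on simulated counts for these genes.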

Additional observations from a re-analysis of the deposited data

How the results depend on the processing

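Depth limited Cyp26b1 and Rarb, which had 1 to 49 counts per library, while Bco1, with 30 to 113 counts, was limited by the spread between control mice. Of the 10 genes, 1 was called lower with no filter on low counts (0.312% of all genes were) and 4 by DESeq2 (1.95%). When single libraries were left out it was 0 to 5, the 5 without knockout 1, where 7.44% of all genes were called lower. Of the other pathway genes, 1 was called with no filter (Cel, higher, as were 196 of 28231 genes). DESeq2 called 3 of them, beside 3.60% of all genes higher and 1.95% lower. When single libraries were left out it was 0 to 12, the 12 without knockout 1, where 17.5% of all genes were called. Cel, also among the 12, was named after its values were seen, so its calls are no test of it. Prkci had a log2 fold change of −1.22 with no filter (adjusted edgeR p 0.0102), −1.23 by DESeq2, and −1.33 to −1.06 when single libraries were left out (adjusted edgeR p 0.00345 without knockout 1). The replicate block changed no call among the 10 genes or the pathway genes (0 with and without it), but took the calls over all genes from 9 to 0.

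The log2 fold changes whose sign turned were near 0 or rested on low counts. Bco1 gave 0.11 by limma-voom, 0.070 with the replicate block, 0.036 and 0.27 with sex from the series text or from Xist and Ddx3y, and −0.45 to 0.47 when single libraries were left out. With library totals Isx gave −0.033, Dgat1 −0.031, Rdh11 −0.098 and Hnf4a −0.018. Rdh11 also gave −0.14 with sex by Xist and Ddx3y and −0.034 per Vil1 count, and Nrip1 gave 0.019 with sex by Xist and Ddx3y. Leaving out single libraries gave Cyp26b1 −1.16 to 0.37, Rdh11 −0.086 to 0.22, Aldh1a3 −0.014 to 1.37 and Nrip1 −0.15 to 0.056. The cause was not tested.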
